A study of Homo sapiens with 3 samples.

Results

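The KLF and SP factor genes examined here were 10 genes fixed by name, KLF2, KLF3, KLF4, KLF5, KLF6, KLF9, KLF10, KLF13, SP1 and SP3, out of 19689 protein-coding genes of GENCODE 44. For each gene, all peaks of 3 chromatin immunoprecipitation sequencing (ChIP-seq) libraries were collected that lay within 1 kb of a transcription start site (TSS), in the gene body or within 50 kb of either gene end. The libraries came from HuCCT1, a cholangiocarcinoma (CCA) cell line for which the labels give no treatment, and were made with an antibody against Strawberry Notch 1 (SBNO1), with one against TAF4, and with control immunoglobulin (IgG). According to the methods of the study, several biological replicates were pooled before sequencing, so there was 1 library per antibody, no spread between replicates could be measured and no difference was tested. The deposited lists held 16147 SBNO1, 12763 TAF4 and 1598 IgG peaks. They held no read numbers, so the depth is unknown, and a gene without a listed peak is not shown to be free of the protein.

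KLF and SP proteins are transcription factors that bind DNA through a conserved set of zinc fingers at their carboxy-terminal end. SP factors prefer GC boxes, and KLF factors bind GC boxes and the related CACCC element, which are common in promoters. TAF4 is a subunit of TFIID, the general factor that places RNA polymerase II at the TSS, and SBNO1 is a nuclear helicase-like protein. The study had searched SBNO1 peaks for binding motifs, those of KLF factors among them. The question here was whether SBNO1 and TAF4 lay at the genes of these factors themselves.

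TAF4 was listed at the promoters of 8 of the 10 genes, and SBNO1 at 3 of them, each of which also carried TAF4. To show what kind of sequence lay under these peaks, the 250 bases upstream of the RefSeq start site (GRCh38.p14) are given for KLF5 and SP1, which had both proteins, and for KLF2 and KLF4, which had TAF4 without SBNO1. The latter pair was chosen after the values were seen. Capitals mark the GC box GGGCGG and the CACCC element, on either strand, and each sequence is written 5′ to 3′ along the gene.
KLF5, inner start site, chr13:73058755-73059004, plus strand: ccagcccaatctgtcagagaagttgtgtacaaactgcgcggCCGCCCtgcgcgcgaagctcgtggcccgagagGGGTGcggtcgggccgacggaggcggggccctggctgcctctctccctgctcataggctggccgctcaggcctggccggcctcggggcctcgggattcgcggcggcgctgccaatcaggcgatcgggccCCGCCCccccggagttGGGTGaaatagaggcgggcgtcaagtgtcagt
SP1, chr12:53379926-53380175, plus strand: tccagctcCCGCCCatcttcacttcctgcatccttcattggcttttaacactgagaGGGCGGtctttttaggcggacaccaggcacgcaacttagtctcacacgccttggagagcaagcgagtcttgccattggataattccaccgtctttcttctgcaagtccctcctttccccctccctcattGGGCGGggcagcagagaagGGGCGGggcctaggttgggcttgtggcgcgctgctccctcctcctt
KLF2, chr19:16324576-16324825, plus strand: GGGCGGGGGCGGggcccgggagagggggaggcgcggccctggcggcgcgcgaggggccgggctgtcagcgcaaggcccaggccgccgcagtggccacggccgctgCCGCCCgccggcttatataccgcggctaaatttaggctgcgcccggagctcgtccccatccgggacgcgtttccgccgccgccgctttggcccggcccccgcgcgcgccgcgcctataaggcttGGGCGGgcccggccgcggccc
KLF4, chr9:107489770-107490019, minus strand: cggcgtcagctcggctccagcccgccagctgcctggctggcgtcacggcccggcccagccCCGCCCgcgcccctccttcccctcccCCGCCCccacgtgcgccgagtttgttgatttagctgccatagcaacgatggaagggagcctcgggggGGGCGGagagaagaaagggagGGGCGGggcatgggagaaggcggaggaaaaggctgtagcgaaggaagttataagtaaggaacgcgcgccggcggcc
These stretches held 2 GC boxes for KLF5, 4 for SP1, 4 for KLF2 and 4 for KLF4, and their GC content was 70.8%, 58.0%, 80.0% and 69.2%, respectively. The CACCC element occurred only in that of KLF5, with 2 matches.

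KLF5, a factor of proliferating epithelium, is located on chromosome 13 (73054976 to 73077541, plus strand, ENSG00000102554.14) and has annotated TSS at 73054976 and 73059005. The SBNO1 peak (73058647 to 73059145) had a score of 806, the score being the authors' whole number with a highest value of 1000. The TAF4 peak (73058620 to 73059134) had a score of 1000. Both covered the inner TSS, and they shared 488 bp, which was 97.8% of the SBNO1 and 94.8% of the TAF4 peak. At the outer TSS no peak was listed within 1 kb. An SBNO1 peak from 73056006 to 73056377 (score 768) lay just beyond this limit, at 1030 bp, and was counted as a peak of the gene body.

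KLF10, an early response gene of TGF-beta signaling, lies on chromosome 8 (102648784 to 102655725, minus strand, ENSG00000155090.15). It carried a pair of peaks from each protein, 1 at either annotated TSS. At the gene start (102655725) the SBNO1 peak had a width of 775 bp and a score of 423, and the TAF4 peak had a width of 980 bp and a score of 938. The SBNO1 peak lay wholly within the TAF4 peak. Near the inner TSS (102654375) the SBNO1 peak started 179 bp downstream of the site (score 822), whereas the TAF4 peak covered it (score 1000). These peaks overlapped by 468 bp and were centred in an untranslated exon.

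SP1, which encodes a broadly expressed activator, lies on chromosome 12 (53380176 to 53416446, plus strand, ENSG00000185591.10). It carried SBNO1 peaks from 53379871 to 53380373 (score 798) and from 53379410 to 53379755 (score 719). The former covered the gene start and the latter ended 421 bp upstream of it. A single TAF4 peak from 53379380 to 53380292 (score 839) overlapped both. SP1 was also the only one of the 10 genes with an IgG peak, from 53379429 to 53380175 with a score of 1000, and this peak overlapped all SBNO1 and TAF4 promoter peaks of the gene. Without peaks overlapping IgG, 2 of the 10 genes retained an SBNO1 promoter peak (KLF5 and KLF10) and 7 a TAF4 promoter peak. The share of all genes under this filter is not given here, so these counts have no background beside them.

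**Figure D1:**
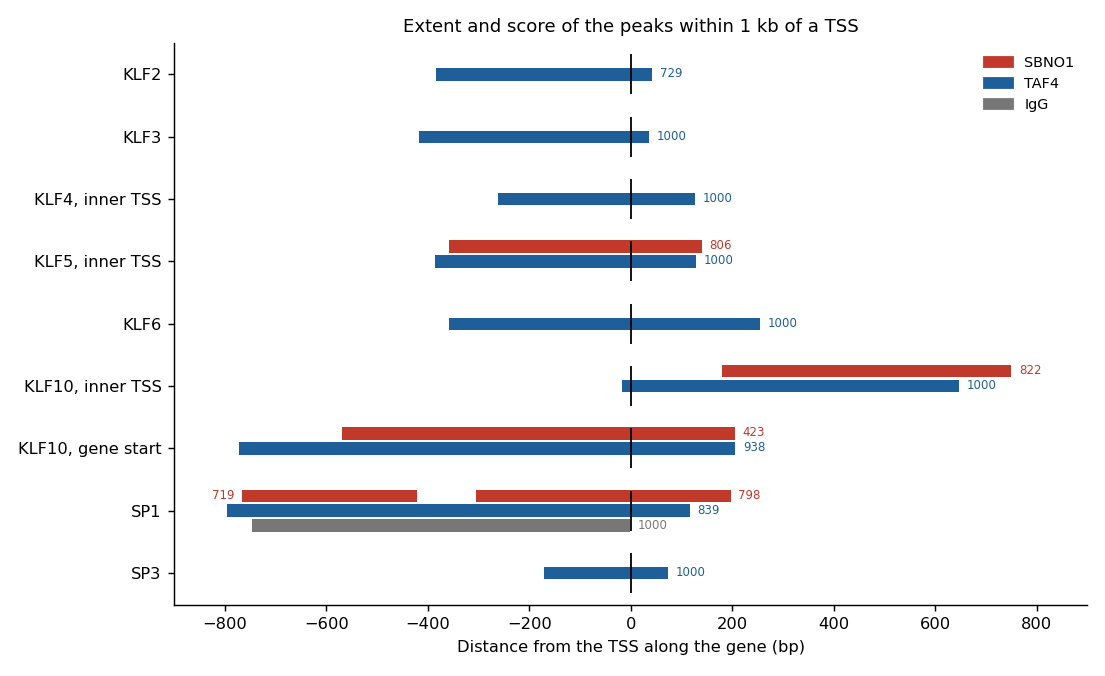
Extent of the SBNO1 (red), TAF4 (blue) and IgG (grey) peaks within 1 kb of a TSS of the 8 genes that had any, as distance in bp from the nearest TSS of the gene, with the score beside each bar. KLF10 has a row for each of its start sites. SBNO1 bars appear at KLF5, KLF10 and SP1, and the IgG bar appears at SP1.

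At 5 genes, a TAF4 promoter peak was listed and no SBNO1 promoter peak. These were KLF2, a factor of endothelial and lymphoid quiescence, KLF3, a repressor that recruits CTBP proteins, KLF4, a factor of epithelial differentiation and pluripotency, KLF6, a widely expressed early response gene, and SP3, a relative of SP1 that binds the same sites. The TAF4 peak covered a TSS of the gene in each case. At KLF2 it spanned 16324443 to 16324868 on chromosome 19 (score 729), and at KLF3 it spanned 38663779 to 38664232 on chromosome 4 (score 1000). The KLF4 peak (chromosome 9, 107489643 to 107490030, score 1000) covered the inner TSS, at which RefSeq places the gene start. KLF6 had the widest TAF4 peak among these genes, with 613 bp (chromosome 10, 3785027 to 3785639, score 1000). SP3 had the narrowest, with 245 bp (chromosome 2, 173965300 to 173965544, score 1000). Counting start sites of non-coding genes as well, 4 of these 5 peaks also lay within 1 kb of the TSS of another gene, namely KLF2-DT at KLF2, KLF3-AS1 at KLF3, ENSG00000288755 at KLF6 and ENSG00000289296 at SP3, whereas the KLF4 peak did not.

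KLF9, which is induced by glucocorticoids and thyroid hormone (chromosome 9, 70384604 to 70414657, minus strand), had no promoter peak in any library. The same was true for KLF13, known as a regulator of chemokine genes in T cells (chromosome 15, 31326835 to 31435665, plus strand), at all 3 of its annotated TSS.

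The counts were set beside those of all protein-coding genes, counting a peak for every gene in reach. An SBNO1 promoter peak was found at 3 of the 10 genes (30.0%, exact 95% Clopper-Pearson interval 6.67% to 65.2%) and at 25.7% of all genes, so the count of SBNO1 was near the background. A TAF4 promoter peak was found at 8 of the 10 genes (80.0%, interval 44.4% to 97.5%) and at 31.9% of all genes. An IgG peak was found at 1 gene, compared with 1.41% of all genes. Overlapping promoter peaks of SBNO1 and TAF4 were present at 3 genes and in 22.3% of all genes. TAF4 without SBNO1 was present at 5 genes and in 9.29% of all genes, while neither was present at 2 genes and in 65.0% of all genes. Among genes with a TAF4 promoter peak, SBNO1 was also listed at 3 of 8 (37.5%, interval 8.52% to 75.5%), compared with 70.9% of 6280 genes in the whole annotation. The latter value lies inside the interval of the 10 genes. All intervals cover counting error only.

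**Figure D2:**
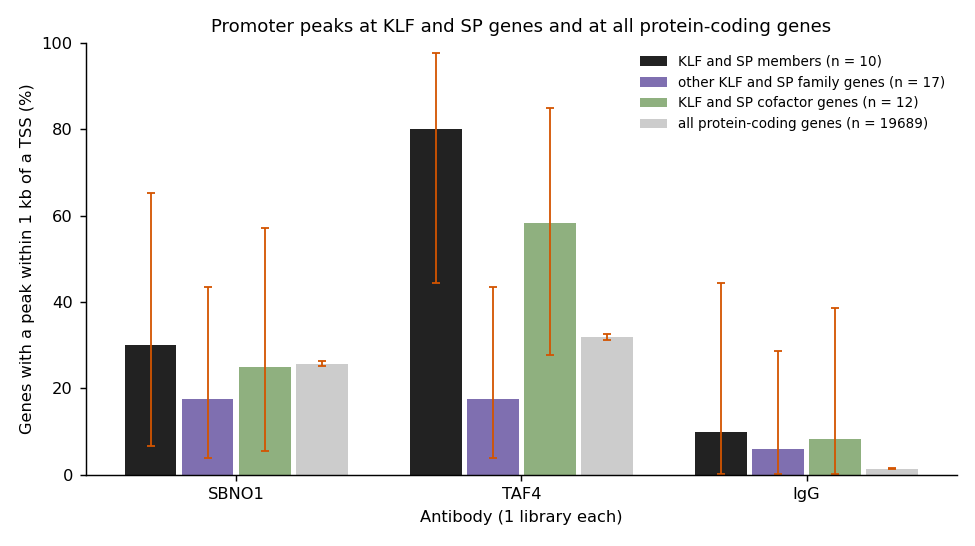
Share of genes (percent) with a peak within 1 kb of a TSS for each antibody, for the 10 KLF and SP genes, 17 other family genes, 12 cofactor genes and all 19689 protein-coding genes. Error bars are exact 95% binomial intervals and cover counting error only. For TAF4 the 10 genes reach 80.0% and all genes 31.9%, while for SBNO1 they reach 30.0% and 25.7%.

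The share of genes with a promoter peak was also determined on each chromosome that carries one of the 10 genes. For TAF4 it ranged from 25.4% on chromosome 4, which holds KLF3, to 37.5% on chromosome 12, which holds SP1. For SBNO1 it ranged from 17.7% to 31.9% on the same chromosomes. Chromosome 12 also had the highest IgG share of these chromosomes, with 3.14% of its genes.

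The score of the promoter peaks was examined next. All 5 SBNO1 promoter peaks of KLF5, KLF10 and SP1 had scores between 423 and 822, below the median of 869 of the SBNO1 list. Of all 4791 SBNO1 peaks within 1 kb of a TSS, 32.2% had the highest score of 1000, and none of these 5 did. In contrast, 6 of the 9 TAF4 promoter peaks had a score of 1000 (66.7%), compared with 50.1% of all 6042 TAF4 peaks near a TSS. The lowest TAF4 score was the 729 of KLF2. Scores of different libraries are not on a stated common scale, so each was set beside its own list. When only peaks at or above the median score of their list were used, none of the 10 genes had an SBNO1 promoter peak and 6 had a TAF4 promoter peak. The share of all genes under this filter was not determined, so these counts have no background beside them.

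**Figure D3:**
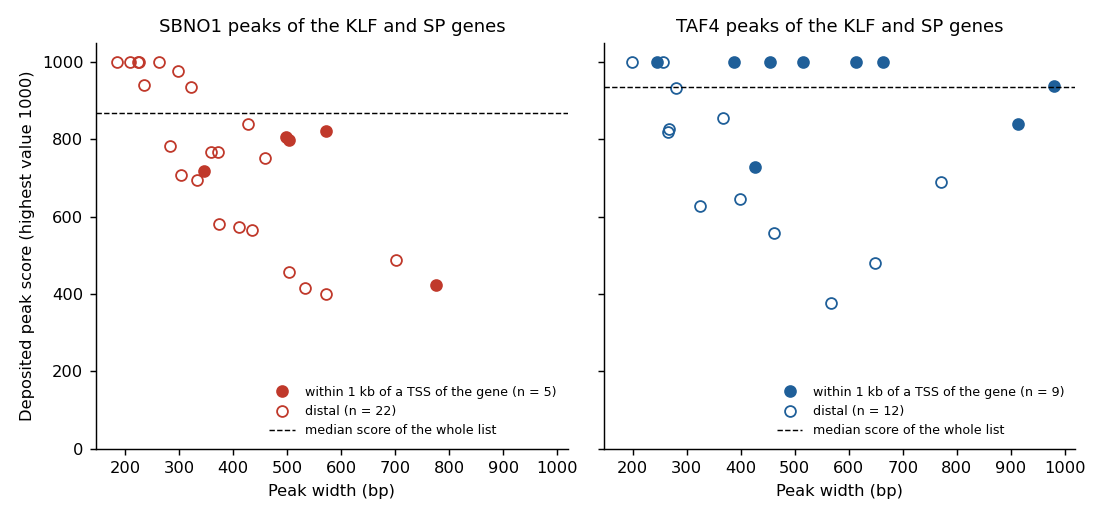
Deposited score against width in bp of the SBNO1 peaks (left) and TAF4 peaks (right) of the 10 genes, filled for promoter peaks and open for distal peaks. The dashed line is the median score of the whole list, 869 for SBNO1 and 935 for TAF4. All filled SBNO1 points lie below the line, and among the open points narrow peaks have the higher scores.

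Outside the promoters, peaks over 1 kb from every protein-coding TSS were counted, which are called distal here. There were 22 distal SBNO1 peaks, 5 in gene bodies and 17 in the flanks, and they fell to 8 of the 10 genes. At least 1 such peak was found near 37.8% of all protein-coding genes. TAF4 had 12 distal peaks, 3 in gene bodies and 9 in the flanks, at 6 genes, compared with 26.8% of all genes. No distal IgG peak was listed at any of the 10 genes, compared with 3.39% of all genes. The median was 1.5 distal SBNO1 peaks and 1 distal TAF4 peak per gene, while both medians were 0 over all genes. Longer genes have a longer window, which was not adjusted for. SP1 had in addition SBNO1 and TAF4 peaks at the promoters of its neighbours PRR13 and PCBP2, which were left out of these counts. Of the distal peaks, 4 of SBNO1 and 4 of TAF4 lay within 1 kb of a TSS of a non-coding gene. For SBNO1 these were at KLF2, KLF6, KLF9 and KLF10, and for TAF4 at KLF2, KLF4, KLF6 and KLF9.

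**Figure D4:**
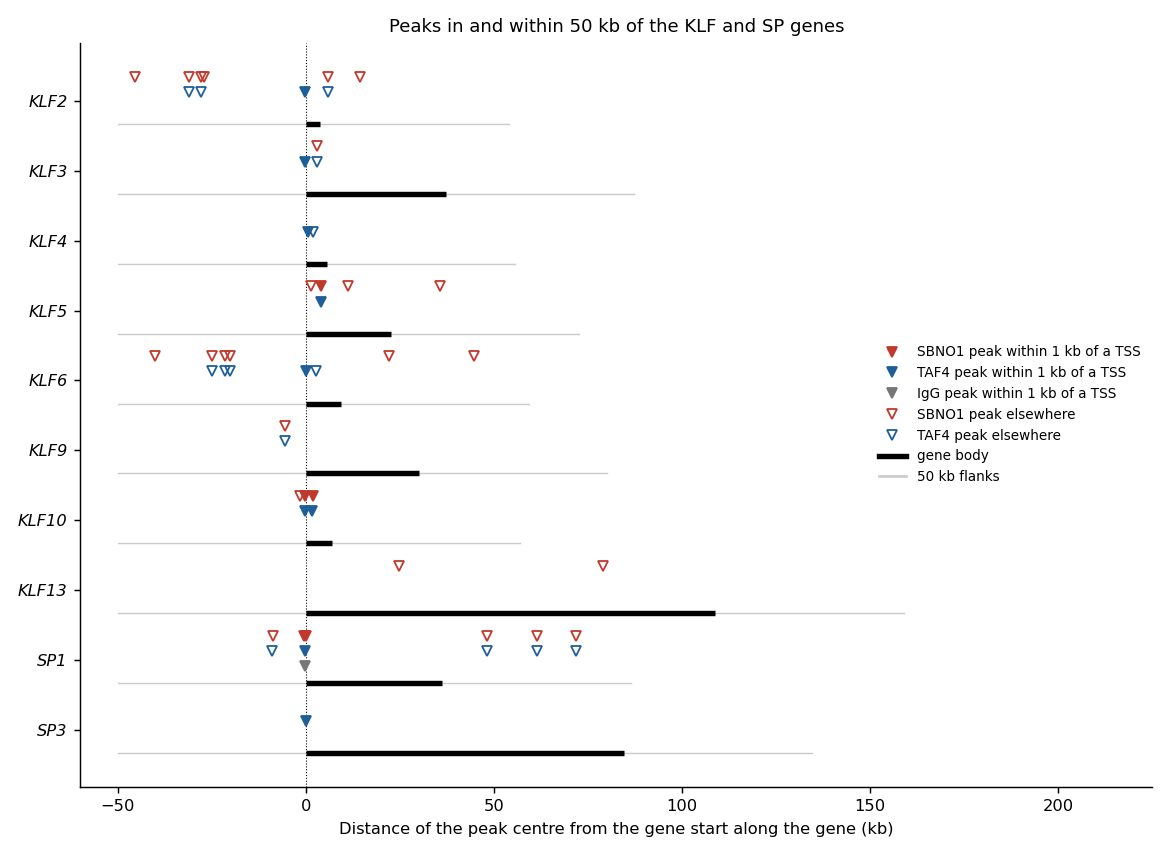
Positions of SBNO1 (red), TAF4 (blue) and IgG (grey) peaks along the 10 genes, as distance of the peak centre from the gene start in kb, positive values being downstream. Filled triangles are peaks within 1 kb of a TSS of the gene, black bars the gene bodies and grey lines the 50 kb flanks. KLF2 and KLF6 have 6 distal SBNO1 peaks each, and KLF4 and SP3 have none.

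KLF2 and KLF6 had the most distal SBNO1 peaks of the 10 genes, with 6 each, a number that 2.19% of all protein-coding genes reached or exceeded. At KLF2 all 6 lay outside protein-coding genes, with the bodies of non-coding genes not considered. A group of 3 was centred between 27038 and 31103 bp upstream of the gene start, a further peak lay 45312 bp upstream, and the remaining peaks lay 5825 and 14283 bp downstream of the start, beyond the end of the gene. The one centred 31103 bp upstream lay within 1 kb of a TSS of the non-coding KLF2-DT. TAF4 overlapped 3 of the 6. The highest-scoring one reached from 16330539 to 16330764 with a score of 1000. Chromosome 19 had the highest density of SBNO1 peaks among the chromosomes of the 10 genes, with 8.22 per Mb, whereas the lowest was 2.26 per Mb on chromosome 13.

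At KLF6 a group of 3 SBNO1 peaks was centred between 20193 and 24989 bp upstream of the gene start, and each of them overlapped a TAF4 peak. The other 3, at 40140 bp upstream and at 22007 and 44646 bp downstream, overlapped none. The highest-scoring peak was the one farthest upstream (chromosome 10, 3825310 to 3825533, score 1000). TAF4 had a further peak in a KLF6 intron (3782228 to 3782795, score 377) without SBNO1. Thus both genes had TAF4 without SBNO1 at the promoter and peaks of both proteins over 5 kb away.

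KLF5 had 3 distal SBNO1 peaks, of which 2 were intronic, and none overlapped TAF4. Its highest-scoring one reached from 73066074 to 73066283 in an intron with a score of 1000. KLF13, which lacked promoter peaks, had 2 intronic SBNO1 peaks without TAF4, at 31351361 to 31351693 (score 695) and at 31405584 to 31405846 (score 1000). KLF9, which lacked promoter peaks as well, had a single SBNO1 peak 5513 bp upstream of its TSS (70420078 to 70420263, score 1000) that coincided with a TAF4 peak (70420065 to 70420263, score 1000). Both of these peaks lay within 1 kb of a TSS of the non-coding gene ENSG00000289159. KLF3 had an intronic SBNO1 peak centred 2988 bp downstream of its start (38666956 to 38667414, score 752), and it lay wholly within a TAF4 peak of 771 bp. KLF10 had 1 SBNO1 peak 1583 bp upstream of its start (102657122 to 102657495, score 581) without TAF4. At SP1, both distal SBNO1 peaks overlapped TAF4. One lay 8841 bp upstream (53371186 to 53371484, score 978) and the other in an intron of AMHR2 downstream of SP1 (53428008 to 53428540, score 416). KLF4 had no distal SBNO1 peak and 1 intronic TAF4 peak, which started 1130 bp from the nearest TSS. SP3 had neither.

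**Figure D5:**
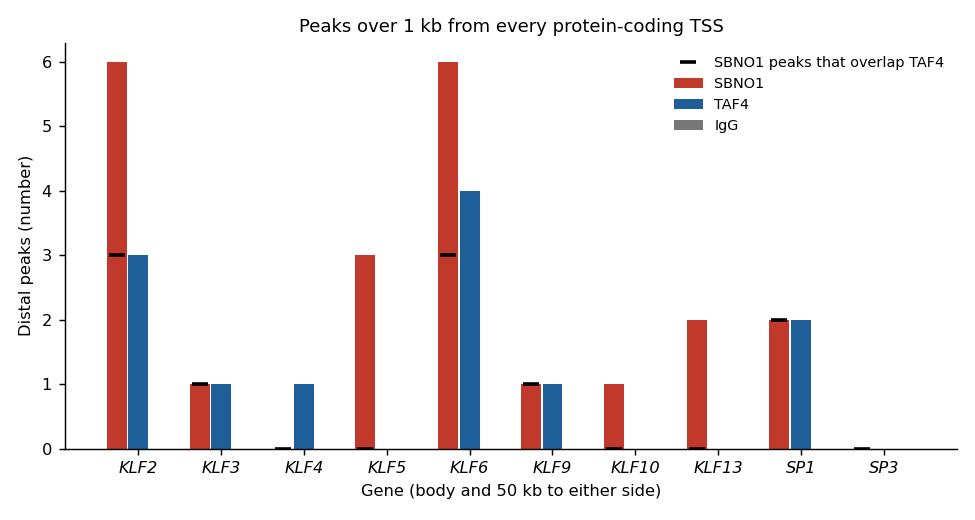
Number of peaks over 1 kb from every protein-coding TSS in the body and 50 kb flanks of each gene, for SBNO1 (red), TAF4 (blue) and IgG (grey, all at 0). The black mark gives the number of SBNO1 peaks that overlap a TAF4 peak, which is 3 of 6 at KLF2 and at KLF6 and 0 of 3 at KLF5.

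Of the 22 distal SBNO1 peaks, 10 overlapped a TAF4 peak (45.5%, interval 24.4% to 67.8%), near the 49.5% of all 11356 distal SBNO1 peaks. Conversely, 10 of the 12 distal TAF4 peaks overlapped SBNO1 (83.3%, interval 51.6% to 97.9%), compared with 83.2% of all distal TAF4 peaks. Both shares of all distal peaks lie inside the intervals of the 10 genes. Their score fell with their width, with a Spearman rho of -0.90 over 22 SBNO1 peaks and -0.781 over 12 TAF4 peaks. Over all distal peaks, rho was -0.419 for SBNO1 and -0.412 for TAF4. Over those below the highest score, rho was -0.405 for SBNO1 and -0.401 for TAF4. These are correlations across peaks of 1 library, which are not replicates, and narrow peaks had the higher scores. Few peaks lay near the limit of 50 kb. The farthest peak inside 50 kb lay 45132 bp from KLF2, and the nearest outside were a TAF4 peak 58485 bp from SP1 and an SBNO1 peak 61191 bp from KLF5.

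The distal peaks were then searched for the binding sequence of AP-1, the dimer of FOS and JUN proteins, in 200 bp at the peak centre. TGACTCA or its reverse complement TGAGTCA occurred in 8 of the 22 SBNO1 windows (36.4%, interval 17.2% to 59.3%) and in 36.6% of all distal SBNO1 windows. In windows moved by 1000 bp to lower or higher coordinates, 1 and 2 of the 22 held a match, and 3.52% and 3.98% of all. Distal TAF4 peaks held a match in 4 of 12 windows at the 10 genes (33.3%, interval 9.92% to 65.1%) and in 32.3% of all windows. The IgG library, which had no distal peak at the 10 genes, showed the match in 15.1% of its 1367 distal windows, compared with 2.19% and 2.85% of those moved to lower and higher coordinates, so the background list was likewise richer in it at the peak centre than 1000 bp away. Of the matching windows at the 10 genes, 5 lay at KLF2, and KLF6, KLF9 and KLF13 had 1 each. A match was present in 3 of 10 SBNO1 peaks with TAF4 (30.0%, interval 6.67% to 65.2%) and in 5 of 12 without (41.7%, interval 15.2% to 72.3%), and these intervals overlap. A match of these letters describes the sequence and does not show that the factor was bound. The surroundings of 4 matches are shown, from the highest-scoring SBNO1 peaks that held one, on the plus strand of GRCh38 with the AP-1 letters in capitals.
KLF13, intron, chr15:31405636-31405736: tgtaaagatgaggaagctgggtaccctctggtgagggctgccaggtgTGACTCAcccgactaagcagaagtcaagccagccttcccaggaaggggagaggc
KLF2, downstream, chr19:16330581-16330681: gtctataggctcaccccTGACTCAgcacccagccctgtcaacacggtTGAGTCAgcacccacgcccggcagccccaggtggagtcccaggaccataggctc
KLF9, upstream, chr9:70420042-70420142: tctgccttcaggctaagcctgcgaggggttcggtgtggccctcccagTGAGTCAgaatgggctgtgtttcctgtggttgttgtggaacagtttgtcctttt
KLF2, farther downstream, chr19:16339099-16339199: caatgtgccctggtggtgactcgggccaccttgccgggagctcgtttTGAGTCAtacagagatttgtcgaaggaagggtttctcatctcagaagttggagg
The peak downstream of KLF2 with a score of 1000 held 2 matches in its window, and the others held 1 each. The KLF9 peak and the former KLF2 peak overlapped TAF4, whereas the KLF13 peak and the latter KLF2 peak did not.

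Since the encoded proteins bind GC boxes and CACCC elements, these were counted at the genes as well. RefSeq promoter windows, from 250 bases before to 50 after a start site, were matched for 8 of the 10 genes, all but KLF3 and KLF10. A GC box was present in 7 of the 8 genes, KLF9 being without, and in 64.3% of 15843 protein-coding genes with such a window. The CACCC element was present in 3 genes (KLF5, KLF13 and SP3), compared with 69.0% of all, the CCAAT box in 6 genes, compared with 42.1%, and the ETS element CCGGAA in 1 gene (SP3), compared with 26.6%. KLF13 held 3 GC boxes in a window of 78.3% GC, in which no library had a peak. The window of KLF9 had 32.7% GC, and that of the outer TSS of KLF5 had 40.7%, no GC box and no peak. The median over the 12 windows of the 8 genes was 69.8% GC, compared with 62.3% over all windows.

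At the centre of the promoter peaks themselves, a GC box lay within 200 bp in all 5 SBNO1 peaks (interval 47.8% to 100%) and all 9 TAF4 peaks (interval 66.4% to 100%). Of all peaks near a TSS, 53.4% of SBNO1 and 59.6% of TAF4 held one. The SBNO1 share lies inside its interval, and the TAF4 share lies below its interval. The 5 SBNO1 peaks came from 3 genes and the 9 TAF4 peaks from 8. The intervals treat peaks of the same gene as independent, so they are too narrow. In the IgG list, 53.7% of the peaks near a TSS held a GC box, among them the IgG peak at SP1. The GC content of these windows moved along with this, with a median of 70.0% for the SBNO1 and 75.5% for the TAF4 promoter peaks, and of 62.5% and 64.5% for all peaks near a TSS. Its part in the result was not tested. Distal SBNO1 peaks of the 10 genes held a GC box in 4 of 22 windows (18.2%, interval 5.19% to 40.3%) and the CACCC element in 12 of 22 (54.5%, interval 32.2% to 75.6%), compared with 8.39% and 43.5% of all distal SBNO1 peaks.

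The remaining genes of the family were examined in the same way. Of 17 other family genes, 3 had an SBNO1 promoter peak (17.6%, interval 3.80% to 43.4%), and the same 3 had a TAF4 promoter peak, namely KLF7, SP2 and SP4. Over all protein-coding genes the shares were 25.7% for SBNO1 and 31.9% for TAF4, both inside the interval of the 17 genes. SP2 also had an IgG peak. The other 14 had none of either protein, among them KLF1, the erythroid factor of the family, SP7, the osteoblast factor, and KLF11, KLF12, KLF15, KLF16 and SP6. No family gene outside the 10 had TAF4 without SBNO1 at its promoter, compared with 9.29% of all protein-coding genes. The difference between the 10 genes and the other family genes was not tested.

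KLF and SP factors act through corepressors and coactivators, so the genes of some of these were included. The ubiquitin ligase genes WWP1 and FBXW7 were counted in the same list, which is called cofactor genes here. Of 12 such genes, 7 had a TAF4 promoter peak (58.3%, interval 27.7% to 84.8%), and 3 of these had SBNO1 as well. The genes with both proteins were SIN3A, the scaffold of a histone deacetylase complex, which also had an IgG peak, EP300, a histone acetyltransferase, and WWP1. TAF4 without SBNO1 was listed at CTBP2, HDAC1, SAP30 and FBXW7, compared with 9.29% of all genes. Neither protein was listed at CTBP1, SIN3B, HDAC2, CREBBP and KAT2B, compared with 65.0% of all genes. CTBP2, a corepressor used by KLF3, had no SBNO1 promoter peak but 10 distal SBNO1 and 8 distal TAF4 peaks, beside 1 distal IgG peak. These were the highest distal counts on the list, whose median was 0 for each library. The share of all genes that reach them is not given here, and gene length was not adjusted for.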

How the data were processed

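ChIP-seq peak lists of HuCCT1 cells were used, 1 library each for SBNO1, TAF4 and IgG. Chromatin was prepared with an enzymatic kit. According to the methods of the study, pooled immunoprecipitates were sequenced with short single-end reads, which were trimmed with ktrim, aligned with bowtie2 to GRCh38.p14 and passed to normR, whereas the submitters' processing notes name Bowtie2 2.5.4 and Genrich 0.6.1. Which caller made the deposited lists, its threshold and whether IgG served as control were not given in the sources used here. The deposited lists gave 5057 genes with an SBNO1 and 6280 with a TAF4 promoter peak. The study reported far fewer such genes, a larger share of peaks near a TSS and a smaller share of TAF4 genes with SBNO1. The lists used here may therefore not be the peak sets it analysed, and their shares are not comparable with those of the study. The deposited score is the authors' whole number, at most 1000, with no stated scaling. The lists held no signal, p-value, summit or read count.

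Coordinates are 1-based on GRCh38. TSS were the 78567 start sites of protein-coding transcripts in GENCODE 44. Distances were measured from the nearest peak edge, peaks were shared with 1 bp of overlap, and every gene in reach of a peak was counted. Motifs were exact matches on either strand in the GRCh38 sequence at the peaks (pysam 0.24.0, samtools 1.23.1). Exact 95% Clopper-Pearson intervals came from scipy 1.17.1. Overlap, distance and motif functions recovered the planted values when tested on simulated data.

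The genes and lists were chosen with earlier results of these data known. All 10 genes were named with their promoter peaks and the highest-scoring distal SBNO1 peak of each. Cofactor and other family genes were named where a promoter peak was missing or IgG was present, otherwise by count. KLF7, SP2, SP4, EP300 and WWP1 were named after their values were seen. Sequences followed a rule on the widest overlap of both proteins and on score, apart from KLF2 and KLF4. The rule left out chromosome 8 and with it KLF10, which had the widest overlap. Alternatives covered distance, TSS set, assignment, overlap, score, IgG overlap, reach and motif window.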

Additional observations from a re-analysis of the deposited data

How the results depend on the processing

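Of 84 values under an alternative, 71 stayed within 1.5 times the main count or inside the 95% interval of the main share, and 13 moved beyond it. The values are counts and shares without a contrast, so none could change direction. The intervals of the shares were wide, so staying inside them is a weak condition. The alternatives for other family and cofactor genes were added after seeing the data. No paired analysis was possible because there was 1 library for each antibody. Most of the moved values came from the score. With peaks at or above the median score of their list, 0 of the 10 genes had an SBNO1 promoter peak and 0 had overlapping promoter peaks, the distal peaks fell to 8 for SBNO1 and 2 for TAF4, the share of distal SBNO1 peaks with TAF4 fell to 12.5%, and 1 other family gene had SBNO1. With peaks at the highest score these values were 0, 0, 5, 2, 20.0% and 1. Since the score of the distal peaks fell with width, these filters also removed wide distal peaks. The relation of score and width was not determined for promoter peaks. When the TSS of non-coding transcripts were used to define distal peaks, 7 distal TAF4 peaks were left. The distal SBNO1 peaks fell to 18, which stayed within the limit. Under the alternatives other than the score, SBNO1 promoter peaks were found at 2 genes (1 TSS per gene, which lost KLF5, or no IgG overlap, which lost SP1) to 4 genes (within 3 kb, which added KLF3), and TAF4 promoter peaks at 7 to 8 genes. Under both score filters TAF4 was left at 6 genes. The shares of all genes under the score filters were not determined, and none are given here for the other alternatives. A count of so few genes and peaks limits the precision of every share, and the depth of the libraries is unknown.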
